A study of Mus musculus with 9 samples.

Results

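The constitutive proteasome genes examined here are 38 named genes for the barrel-shaped 20S core, the 19S cap that feeds it, and the factors that assemble, open or block these particles. They were picked by gene name from a list, with the subunits of the interferon-inducible immunoproteasome left out. All 38 were present once each among the 34745 genes of the table, and all 38 passed the filter on low counts that left 14506 genes to be tested. By role they were 7 alpha-ring and 7 beta-ring subunits of the core, 17 subunits of the cap, 3 chaperones of cap assembly, and 4 other factors (2 activators, 1 inhibitor and 1 core maturation factor).

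RNA was sequenced from subcutaneous tumours of LLC, the Lewis lung carcinoma line of C57BL/6 origin, grown in male wild-type C57BL/6 mice. Mice were randomised into 3 groups once tumours had grown, and 3 tumours per group were measured. One group received an isotype control antibody (10 mg/kg), one an anti-PDL1 antibody (10 mg/kg), and one BTZ (bortezomib, 0.5 mg/kg) together with anti-PDL1 (10 mg/kg), each by intraperitoneal injection. No group received BTZ alone, so a difference between the BTZ+anti-PDL1 and isotype groups joins both agents, and only BTZ+anti-PDL1 against anti-PDL1 sets BTZ apart. The labels give neither the dosing schedule nor the time from the last dose to collection.

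The proteasome degrades proteins that carry ubiquitin chains. The cap binds the chain, removes it, unfolds the protein with a ring of ATPases and threads it through the alpha ring into the beta ring, where 3 kinds of catalytic subunit cut it. Bortezomib is a boronate that binds mainly the catalytic subunit encoded by Psmb5. In cultured cells, loss of proteasome activity is known to activate the transcription factor Nfe2l1, which raises transcription of proteasome subunit genes together, the so-called bounce-back response. The comparison of BTZ+anti-PDL1 with anti-PDL1 shows whether transcripts of these genes stood higher in tumours of mice given the inhibitor.

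The sequence just upstream of a proteasome gene is where that factor would bind, through a motif called the antioxidant response element (searched here as TGACNNNGC on both strands). RefSeq promoter sequences (mouse build GRCm38.p6, the same assembly as mm10) were found for 32 of the 38 genes, and the 250 bases before the transcription start were read. Shown here are the windows of Psmb5, the bortezomib target, of Psmb6, a second catalytic gene whose window holds the element, and of Psma5 and Psmd5, whose fold changes were the highest on the addition of BTZ. Capitals mark every match to the motifs listed after the sequences, and each line runs 5′ to 3′ on the strand of the gene.
Psmb5: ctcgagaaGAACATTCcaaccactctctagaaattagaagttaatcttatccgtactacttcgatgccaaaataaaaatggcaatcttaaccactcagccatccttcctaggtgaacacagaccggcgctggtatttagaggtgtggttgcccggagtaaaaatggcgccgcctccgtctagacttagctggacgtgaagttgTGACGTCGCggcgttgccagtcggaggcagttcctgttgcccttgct
Psmb6: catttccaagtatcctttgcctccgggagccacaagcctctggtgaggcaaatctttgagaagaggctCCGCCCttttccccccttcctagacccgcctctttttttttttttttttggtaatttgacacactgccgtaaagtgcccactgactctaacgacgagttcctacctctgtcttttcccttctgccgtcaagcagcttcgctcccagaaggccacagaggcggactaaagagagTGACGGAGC
Psma5: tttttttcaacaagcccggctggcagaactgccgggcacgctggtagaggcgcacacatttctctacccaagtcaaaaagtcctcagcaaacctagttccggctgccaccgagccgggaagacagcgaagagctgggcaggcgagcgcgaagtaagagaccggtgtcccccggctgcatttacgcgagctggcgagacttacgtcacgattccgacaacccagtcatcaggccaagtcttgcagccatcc
Psmd5: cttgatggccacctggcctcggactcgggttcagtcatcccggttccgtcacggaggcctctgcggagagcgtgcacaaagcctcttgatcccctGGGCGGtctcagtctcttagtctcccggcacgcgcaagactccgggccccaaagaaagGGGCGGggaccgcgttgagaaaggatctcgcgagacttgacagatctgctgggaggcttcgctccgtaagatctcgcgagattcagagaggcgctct

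The Psmb5 window lies at chr14:54617996-54618245 on the minus strand. It holds TGACGTCGC, a match to the antioxidant response element at position -47 from the transcription start, and GAACATTC, a match to a heat shock motif (GAANNTTC) at position -242. The Psmb6 window (chr11:70525107-70525356, plus strand) holds TGACGGAGC at position -9, and a GC box (GGGCGG) on the other strand. The Psma5 window (chr3:108256676-108256925, plus strand) has no capitals, because none of the motifs searched was found in it. The Psmd5 window (chr2:34870963-34871212, minus strand) holds 2 GC boxes and no antioxidant response element. It lies before the RefSeq start of Psmd5 but inside the locus that the deposited table and GENCODE M21 give for the gene, whose end on that side is farther upstream.

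Over the 32 genes with a window, the antioxidant response element letters were present in 5, namely Psmb5, Psmb6, Psmc6, Psmd9 and Psmd12, which is 15.6% beside 10.2% of all 32851 mouse promoter windows of that length. The 32 genes have 34 windows, and a gene counted if any of its windows matched. Shares over all promoters count single windows, so the units differ slightly. The GC box was in 19 of the 32 (59.4%, beside 32.7% of all windows). An ETS motif (CCGGAAG) was in 12 (37.5%, beside 6.91%), and the motif of nuclear respiratory factor was in 6 (18.8%, beside 3.74%). The CCAAT box was in 12 (37.5%, beside 33.8%) and TATAAA in 3 (9.4%, beside 12.4%). The heat shock motif was in 2 (6.2%, beside 6.69%) and the interferon response motif in 3 (9.4%, beside 2.98%). The cAMP response motif TGACGTCA and a YY1 motif were in 0, beside 1.55% and 0.207% of all windows. A match is a description of letters in these windows and not a bound site, and a window without a match says only that the letters are not there.

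The level of a gene was read as FPKM, a count divided by the length of the gene model and by the library total. Mean FPKM over the 9 tumours ran from 3.33 for Psmf1, an inhibitor, to 176 for Psmb1, a range of 53.0-fold. Core and cap subunits, which enter their particle in fixed numbers, ran from 9.62 for Psmd11 to 176 for Psmb1. Within the 20S core the range was 15.8-fold. Psmb1, a structural beta-ring subunit, stood between 166 and 191 FPKM in the 9 tumours, and Psmb3, another, between 30.1 and 35.1. Psma2, an alpha-ring subunit, stood between 111 and 145 FPKM, while Psma3 of the same ring stood between 9.95 and 12.9.

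Much of that order rests on the length assigned to each gene. The length implied by the deposited FPKM exceeded the union of GENCODE M21 exons for 30 of the 38 genes. Divided by the GENCODE exon length in place of the authors' length, mean CPM (the count per library total, scaled by the TMM method) spanned 19.9-fold over the 38 genes and 5.85-fold within the core. Psma6 then ranked first (rank 8 by FPKM), Psmb1 moved from rank 1 to rank 17, and Psma2 from rank 2 to rank 27. In all, 5 genes moved by more than 10 ranks. The order of the genes in level, its top included, therefore depends on the gene model, whereas comparisons of 1 gene between tumours do not.

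**Figure D1:**
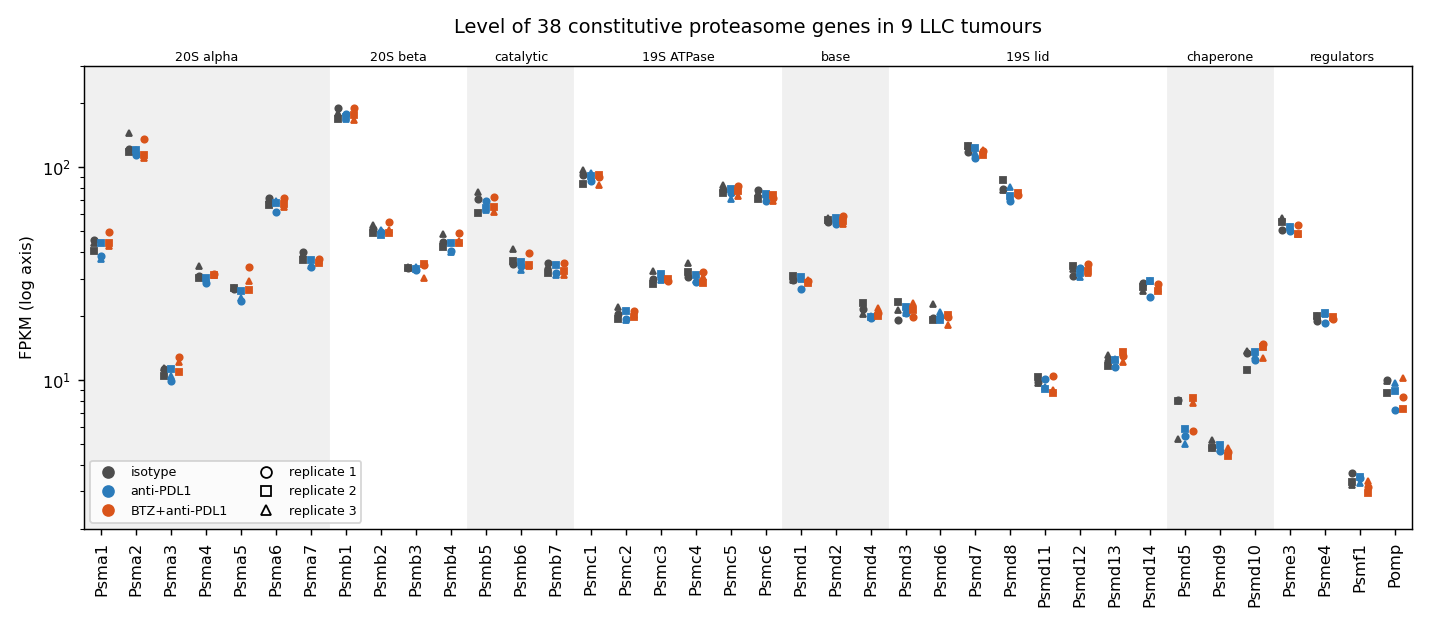
FPKM (log axis) of each of the 38 genes, ordered by role, in the 9 tumours; colour gives the group and marker shape the replicate. Every gene keeps its level across tumours, from about 3 FPKM for Psmf1 to between 166 and 191 for Psmb1, and Psmd5 shows the widest scatter.

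Between tumours the genes varied little. For a given gene the highest FPKM of the 9 tumours was between 1.08 times (Psmd2) and 1.65 times (Psmd5) the lowest. The median within-group SD of log2 CPM was 0.0766 over the 38 genes and 0.17 over all genes tested, and 36 of the 38 lay below that all-gene median. The 2 exceptions were Pomp, the maturation factor of the core (0.195), and Psmd5 (0.281). The genes were also more abundant than most, with a median of 115 CPM against 26.05 CPM for all genes, and more abundant genes have smaller counting error. Counts per gene and tumour ran from 398 to 6840.

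**Figure D2:**
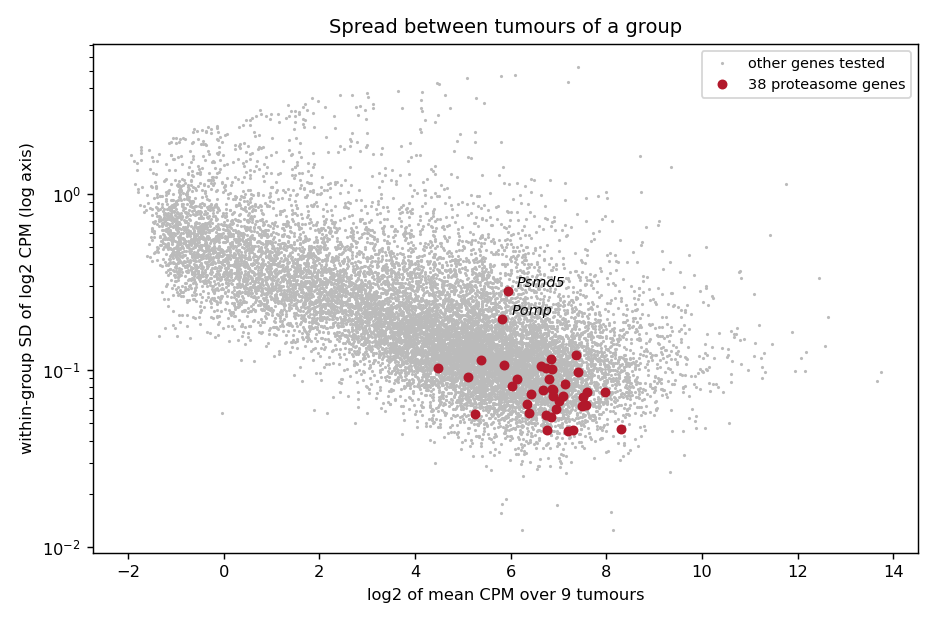
Within-group SD of log2 CPM (log axis) against log2 of mean CPM for the 38 proteasome genes (red) and all other genes tested (grey), 9 tumours in 3 groups. Most red points lie in the lower part of the grey cloud at their level, and Psmd5 (0.281) and Pomp (0.195) lie above the other members.

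Column totals of the 9 libraries lay between 18.52 M and 21.51 M (M, mega). The label calls LLC a lung adenocarcinoma, and 11 markers of that identity were read. Nkx2-1, Sftpc and Sftpb were listed at 0 in all 9 tumours, while Napsa was between 1.7 and 3.84 FPKM. Of the epithelial keratins, Krt8 was between 2.02 and 15 FPKM and Krt18 between 40.5 and 81.8. The rest (Krt7, Krt19, Epcam, Cdh1 and Muc1) reached at most 1.71 FPKM, in Cdh1. The tumours also held other tissue in unequal amounts. Summed over 10 skeletal muscle markers, of which none was at 0 in all tumours, CPM ran from 5.88 to 2900 in isotype, 113 to 1040 in anti-PDL1 and 5.36 to 811 in BTZ+anti-PDL1 tumours, and the highest tumour of each group (isotype replicate 3, anti-PDL1 replicate 1, BTZ+anti-PDL1 replicate 1) is called muscle-rich here. In such bulk tissue, fewer cells of a type and less RNA per cell cannot be told apart. Values without these 3 tumours are given beside the medians over the 38 genes and beside several single genes. They rest on fewer tumours per group and are not free of muscle. The muscle sums left were 5.88 and 7.57 CPM in isotype, 113 and 210 in anti-PDL1, and 19.3 and 5.36 in BTZ+anti-PDL1 tumours.

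The comparison of anti-PDL1 with isotype asks how the antibody alone relates to proteasome transcripts. None of the 38 genes changed past the threshold, an adjusted p under 0.05 by edgeR's quasi-likelihood test with Benjamini-Hochberg adjustment over 14506 genes (0.0138% of all genes tested passed). DESeq2 and limma also called 0 of the 38. At an unadjusted p under 0.05 the edgeR count was 1, Psma7, lower in anti-PDL1, beside 3.34% of all genes lower and 3.01% higher at that level. Most fold changes were small and below 0. They were below 0 for 33 of the 38 genes and above 0 for 5, beside 51% and 49% of all genes, with a median log2 fold change of -0.069 beside -0.0034 for all genes. Without the 3 muscle-rich tumours the median was -0.045 and 30 genes lay below 0.

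BTZ+anti-PDL1 against anti-PDL1 differs in treatment by the addition of the inhibitor. The tissue measured differed too. Summed marker CPM was lower without overlap in BTZ+anti-PDL1 tumours for endothelial (166 to 200 against 210 to 263) and neutrophil genes (34.1 to 68.2 against 74 to 101). The same held for fibroblast genes (7880 to 8100 against 8950 to 11900). The other marker lists overlapped, and the part of tissue content in the values below was not tested. Again 0 of 38 genes were called by edgeR (0.0138% of all genes passed), and 0 by DESeq2 and by limma. At an unadjusted p under 0.05, 1 gene was higher, Psma5, and 0 were lower, beside 3.15% and 2.67% of all genes. Fold changes were above 0 for 23 and below 0 for 15 genes (50.8% and 49.2% of all genes), with a median of 0.011 beside 0.0030 for all genes. The direction of that median turned with single tumours. It was -0.014 without BTZ+anti-PDL1 replicate 1, -0.0065 without anti-PDL1 replicate 1, and -0.040 without the 3 muscle-rich tumours, when 25 genes lay below 0.

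BTZ+anti-PDL1 against isotype gave 0 of 38 called genes by edgeR (0.00689% of all genes passed), by DESeq2 and by limma, and 0 genes at an unadjusted p under 0.05, beside 4.18% of all genes lower and 4.42% higher at that level. Fold changes were below 0 for 31 of the 38 and above 0 for 7 (50.3% and 49.7% of all genes), with a median of -0.053 beside -0.0011, which was -0.090 without the 3 muscle-rich tumours and -0.029 by limma on log2 FPKM with either pseudocount. The 3 comparisons share tumours pairwise, so these directions are not independent of each other. By CPM, the highest of the 9 tumours was an isotype tumour for 29 of the 38 genes, a BTZ+anti-PDL1 tumour for 8 and an anti-PDL1 tumour for 1 (Psmd14). The lowest was an anti-PDL1 tumour for 21, a BTZ+anti-PDL1 tumour for 15 and an isotype tumour for 2. No share over all genes was taken for these counts, so they describe the members only. They also depend on the TMM factors, of which isotype replicate 2 had the lowest (0.964). For Psmd2 the highest tumour was isotype replicate 2 by CPM but BTZ+anti-PDL1 replicate 1 by FPKM (58.7 against 56.6), which carries no TMM factor.

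A gene that misses the threshold is not shown to be equal between groups, so the 95% intervals matter. The interval of the log2 fold change lay within ±0.5 (1.41-fold) for 37 of 38 genes in anti-PDL1 against isotype, 37 in BTZ+anti-PDL1 against anti-PDL1 and 38 in BTZ+anti-PDL1 against isotype, the exception being Psmd5. It lay within ±0.25 (1.19-fold) for 25, 30 and 24 genes. The intervals of all 38 genes excluded a 2-fold difference in each comparison. The median SE was 0.0713 on the log2 scale, against 0.138 for all genes tested.

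**Figure D3:**
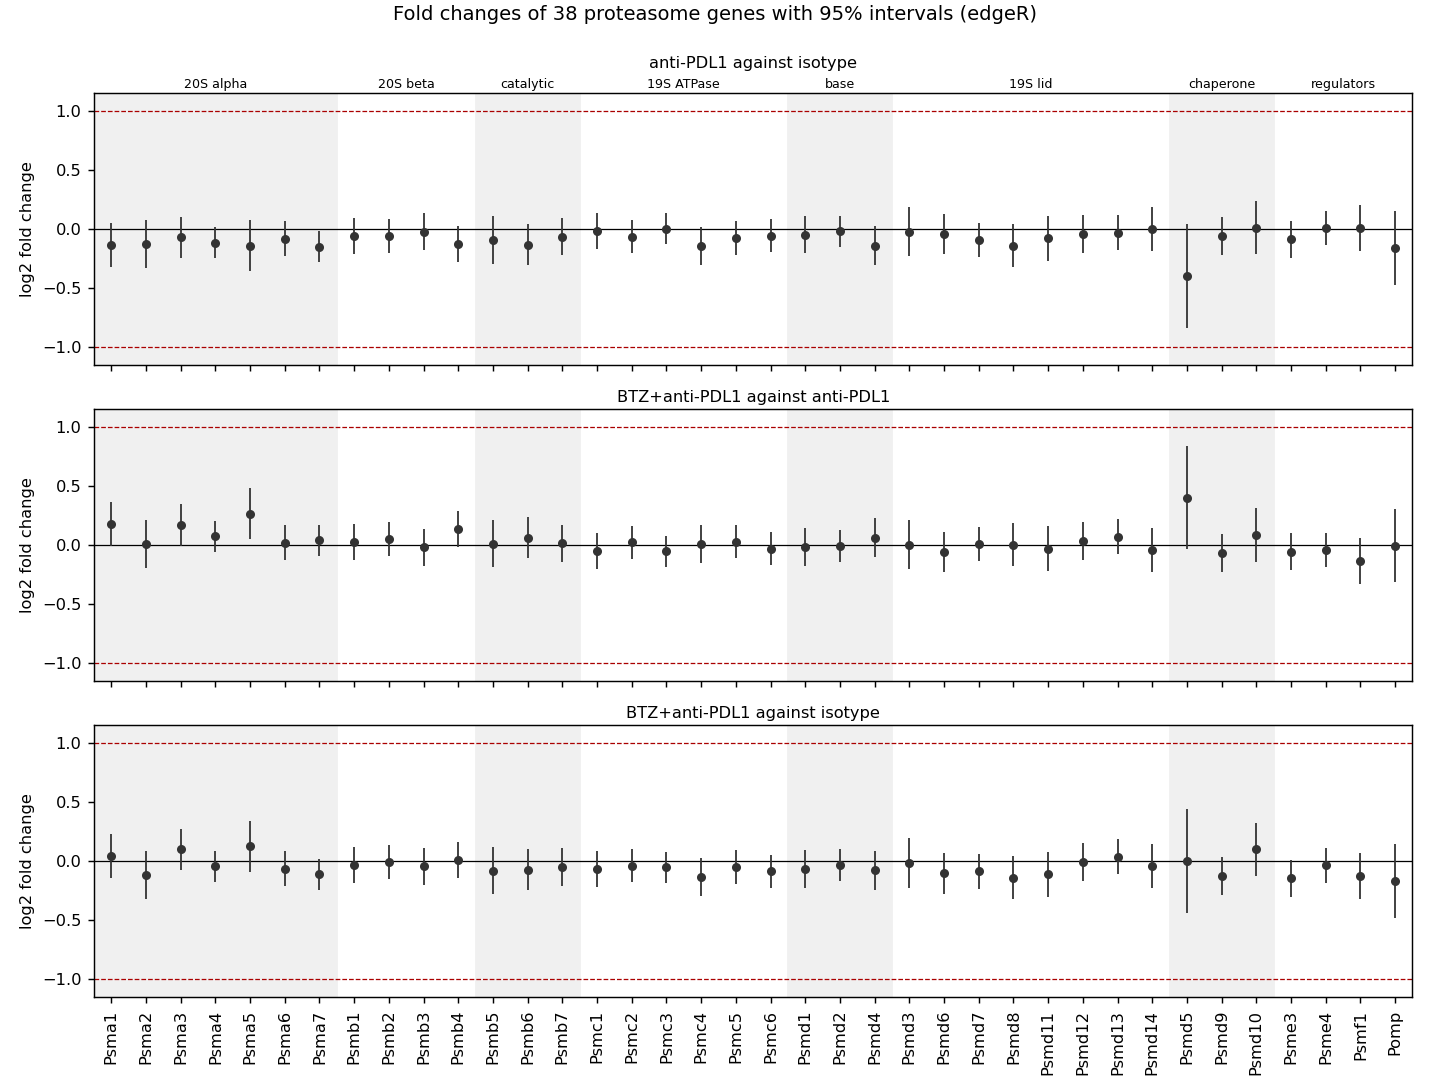
Log2 fold change (points) with 95% confidence interval (bars) of the 38 genes in the 3 comparisons, by role, from edgeR with 3 tumours per group; the dashed lines mark a 2-fold difference either way. All intervals lie inside the dashed lines, most include 0, and the Psmd5 intervals are the widest.

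The catalytic subunits are the members on which bortezomib acts. Psmb5 (ENSMUSG00000022193, chr14:54614120-54617995, minus strand) encodes the chymotrypsin-like subunit. Its CPM was 62.4, 54.9 and 65.5 in isotype, 60.3, 55.7 and 55.4 in anti-PDL1, and 62.7, 56.2 and 53.8 in BTZ+anti-PDL1 tumours. The 3 groups overlapped, and each group held tumours near 55 and tumours above 60. The log2 fold change was -0.09 ± 0.09 (SE; adjusted p = 0.859 by edgeR) for anti-PDL1 against isotype and -0.08 ± 0.09 (adjusted p = 0.811) for BTZ+anti-PDL1 against isotype. On adding BTZ it was 0.01 ± 0.09 (95% interval -0.19 to 0.21, adjusted p = 0.993), and -0.016 without the muscle-rich tumours.

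Psmb6, the caspase-like subunit, had 110, 117 and 126 CPM in isotype, 107, 111 and 103 in anti-PDL1, and 122, 106 and 107 in BTZ+anti-PDL1 tumours. Isotype replicate 3 and BTZ+anti-PDL1 replicate 1, both muscle-rich, were the highest, and the groups overlapped. The log2 fold change was -0.14 ± 0.08 for anti-PDL1 against isotype and 0.06 ± 0.08 on adding BTZ (adjusted p = 0.777 and 0.939 by edgeR), the latter -0.0083 without the muscle-rich tumours. Psmb7, the trypsin-like subunit, had 127, 117 and 120 CPM in isotype, 114, 124 and 111 in anti-PDL1, and 125, 115 and 111 in BTZ+anti-PDL1 tumours, with overlap of all groups. Its log2 fold change was -0.07 ± 0.07 for anti-PDL1 against isotype and 0.01 ± 0.07 on adding BTZ, the latter -0.054 without the muscle-rich tumours. The 3 catalytic genes thus had neither a called difference nor a stable sign on addition of BTZ. Exons of Psmb5 hold the microRNA gene Mir686 on the same strand, and exons of Psmb7 overlap those of Nek6 on the other, so a share of their counts could come from those genes.

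The alpha ring gates entry to the core. All 7 of its genes had fold changes below 0 in anti-PDL1 against isotype (median -0.125) and all 7 above 0 on adding BTZ (median 0.073). These 2 comparisons share the anti-PDL1 tumours, so the one direction bears on the other. In anti-PDL1 against isotype, 5 of the 38 genes were lower without overlap by CPM, beside 6.61% of all genes. They were 4 alpha-ring genes (Psma2, Psma4, Psma5 and Psma7) and Psmc5. For Psma2 the gap was narrow (115.5 against 114.9 CPM), and in FPKM its groups overlapped. No member was higher without overlap there, beside 6.08% of all genes. On adding BTZ, 2 of the 38 genes, Psma4 and Psma5, were higher without overlap, beside 7.33% of all genes.

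Psma7 (ENSMUSG00000027566, chr2:180036373-180042433, minus strand) had 173, 164 and 164 CPM in isotype, 146, 157 and 149 in anti-PDL1, and 157, 151 and 156 in BTZ+anti-PDL1 tumours. All isotype tumours were above all others. The log2 fold change was -0.15 ± 0.06 for anti-PDL1 against isotype (unadjusted p = 0.0272, adjusted p = 0.763 by edgeR) and -0.11 ± 0.06 for BTZ+anti-PDL1 against isotype (adjusted p = 0.628). Leaving out each tumour in turn moved the first of these between -0.18 and -0.12.

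Psma5 (ENSMUSG00000068749, chr3:108256926-108279974, plus strand) had 41.5, 43.3 and 40.8 CPM in isotype, 36.1, 40.1 and 37.7 in anti-PDL1, and 51.5, 40.3 and 45 in BTZ+anti-PDL1 tumours. The anti-PDL1 tumours were the lowest of the 9, and BTZ+anti-PDL1 replicate 1 was the highest. On adding BTZ its log2 fold change was 0.27 ± 0.10 (unadjusted p = 0.0211, adjusted p = 0.819 by edgeR), and it was between 0.17 (without BTZ+anti-PDL1 replicate 1) and 0.35 when single tumours were left out. Without the muscle-rich tumours it was 0.13. Against isotype it was 0.12 ± 0.10, which was 0.028 without BTZ+anti-PDL1 replicate 1 and 0.0091 without the muscle-rich tumours. An antisense gene, 1700010K24Rik, overlaps Psma5 exons, and since no strand setting is given its reads cannot be told apart.

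Psma3 had 70.9, 67.9 and 69.7 CPM in isotype, 62.2, 70.1 and 66.0 in anti-PDL1, and 79.8, 67.4 and 75.8 in BTZ+anti-PDL1 tumours. BTZ+anti-PDL1 replicates 1 and 3 were the highest of the 9, while replicate 2 lay among the anti-PDL1 tumours. On adding BTZ its log2 fold change was 0.17 ± 0.08 (adjusted p = 0.861 by edgeR), and 0.073 without the muscle-rich tumours. Psma1 gave 0.17 ± 0.08 and Psma4 0.07 ± 0.06 in the same comparison. Psma2 (116, 116 and 134 CPM in isotype, 107, 113 and 115 in anti-PDL1, 126, 107 and 104 in BTZ+anti-PDL1) and Psma6 gave 0.0080 and 0.018. So the ring's upper values on adding BTZ came from Psma1, Psma3 and Psma5 and were largest in replicate 1, a muscle-rich tumour.

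**Figure D4:**
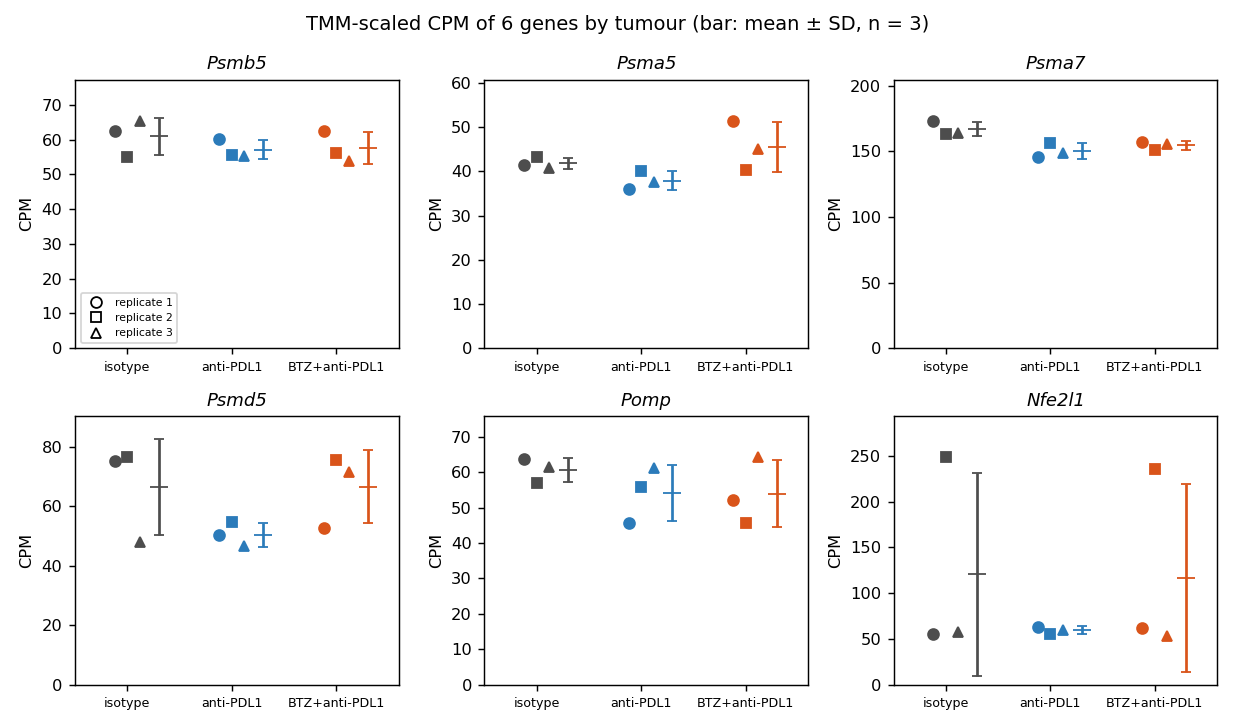
CPM (TMM-scaled, linear axes from 0) of Psmb5, Psma5, Psma7, Psmd5, Pomp and Nfe2l1 in each tumour, with the group mean ± SD (n = 3) beside the points. Psma7 was above all other tumours in isotype, Psma5 was below all others in anti-PDL1, and Psmd5 and Nfe2l1 each split tumours within groups.

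The structural beta-ring genes Psmb1, Psmb2, Psmb3 and Psmb4 had log2 fold changes from -0.13 to -0.026 in anti-PDL1 against isotype and from -0.018 to 0.13 on adding BTZ. Psmb1 had 197, 180 and 183 CPM in isotype, 184, 177 and 176 in anti-PDL1, and 195, 180 and 171 in BTZ+anti-PDL1 tumours. Psmb3 had 87.1, 89.6 and 85.2 CPM in isotype, 84.4, 84.8 and 87.9 in anti-PDL1, and 88.0, 88.9 and 76.9 in BTZ+anti-PDL1 tumours. For both genes, BTZ+anti-PDL1 replicate 3 was the lowest of the 9 and all groups overlapped. Over the whole core of 14 genes, 14 were below 0 in anti-PDL1 against isotype (median -0.105) and 13 above 0 on adding BTZ (median 0.045). Against isotype, 10 of 14 were below 0 in BTZ+anti-PDL1 (median -0.044).

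In the cap, the 6 ATPases Psmc1 to Psmc6 form the ring that unfolds substrates. Their log2 fold changes were between -0.14 and 0.0029 in anti-PDL1 against isotype, and between -0.055 and 0.028 on adding BTZ. Psmc1, the ATPase highest by FPKM, had 141, 132 and 145 CPM in isotype, 131, 138 and 144 in anti-PDL1, and 135, 138 and 126 in BTZ+anti-PDL1 tumours. Psmc2, the lowest, had 109, 105 and 113 CPM in isotype, 101, 110 and 101 in anti-PDL1, and 109, 103 and 106 in BTZ+anti-PDL1 tumours. Neither gene set the groups apart. Psmc3 was the only member with all BTZ+anti-PDL1 tumours (141, 144 and 143 CPM) below all anti-PDL1 tumours (148, 153 and 145), beside 6.99% of all genes. Its log2 fold change there was -0.055 ± 0.058, and its groups did overlap with isotype (146, 142 and 156). Against isotype, Psmc5 was lower without overlap in anti-PDL1 (at most 126.20 CPM against at least 126.21), beside 6.61% of all genes. Psmc6 was so in BTZ+anti-PDL1 tumours (at most 114.97 CPM against at least 115.37), beside 6.03%. In FPKM, which carries no TMM factor, the groups overlapped for Psmc3, Psmc5 and Psmc6 in these comparisons.

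The base also holds the scaffolds Psmd1 and Psmd2 and the ubiquitin receptor Psmd4. Psmd2 was the steadiest member by its ratio of highest to lowest FPKM, with 315, 332 and 321 CPM in isotype, 306, 327 and 320 in anti-PDL1, and 328, 311 and 306 in BTZ+anti-PDL1 tumours. Psmd4 had 146, 162 and 136 CPM in isotype, 132, 134 and 137 in anti-PDL1, and 139, 134 and 148 in BTZ+anti-PDL1 tumours. Isotype replicate 2 was the highest for both, and no group stood apart. Psmd4 gave log2 fold changes of -0.14 ± 0.07 for anti-PDL1 against isotype and 0.06 ± 0.07 on adding BTZ (adjusted p = 0.767 and 0.938 by edgeR).

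The lid holds 8 of the genes, among them Psmd14, the enzyme that removes ubiquitin chains, and Psmd7, its partner. Psmd7 had 191, 209 and 198 CPM in isotype, 176, 196 and 188 in anti-PDL1, and 189, 181 and 192 in BTZ+anti-PDL1 tumours. Psmd11, which braces the lid against the core, had 103, 111 and 98.6 CPM in isotype, 105, 93.8 and 96.3 in anti-PDL1, and 107, 88.7 and 92.9 in BTZ+anti-PDL1 tumours. Isotype replicate 2 was the highest for both. Psmd8 was the lid gene with BTZ+anti-PDL1 tumours (163, 167 and 165 CPM) all below isotype (177, 200 and 170), at a log2 fold change of -0.14 ± 0.08 (adjusted p = 0.643 by edgeR). In that comparison 4 of the 38 genes did not overlap in the lower direction (Psma7, Psmc6, Psmd8 and Psmd9) and 0 in the higher, beside 6.03% and 6.96% of all genes. Of those 4, only Psmd8 also kept its groups apart in FPKM. The 8 lid genes, Psmd3, Psmd6, Psmd12, Psmd13 and Psmd14 among them, ran from -0.14 to 0.0020 in anti-PDL1 against isotype and from -0.059 to 0.069 on adding BTZ. Over the 17 cap genes, 15 lay below 0 in anti-PDL1 against isotype (median -0.049), 9 on adding BTZ (median -0.00030) and 16 in BTZ+anti-PDL1 against isotype (median -0.067).

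The 3 chaperones Psmd5, Psmd9 and Psmd10 hold the ATPases during assembly of the base and leave the finished particle. Psmd5 (ENSMUSG00000026869, chr2:34849734-34874968, minus strand) had 75.2, 76.4 and 47.9 CPM in isotype, 50.2, 54.5 and 46.5 in anti-PDL1, and 52.7, 75.4 and 71.5 in BTZ+anti-PDL1 tumours. Values fell into a higher set of 4 tumours (isotype replicates 1 and 2, BTZ+anti-PDL1 replicates 2 and 3) at 71.5 or above and a lower set of 5 at 54.5 or below. The 3 muscle-rich tumours were all in the lower set, as were the anti-PDL1 tumours. Its log2 fold changes were the largest of the 38, at -0.40 ± 0.19 for anti-PDL1 against isotype and 0.40 ± 0.19 on adding BTZ (adjusted p = 0.763 and 0.877 by edgeR), and 0.00032 ± 0.19 for BTZ+anti-PDL1 against isotype. Without the muscle-rich tumours the first 2 were -0.59 and 0.54, so they were at least as large.

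Psmd9 had 38.8, 39.7 and 41.2 CPM in isotype, 37.3, 39.7 and 38 in anti-PDL1, and 36.4, 34.6 and 38.4 in BTZ+anti-PDL1 tumours. All BTZ+anti-PDL1 tumours lay below all isotype tumours, at a log2 fold change of -0.13 ± 0.07 (adjusted p = 0.639 by edgeR). Psmd10, known as gankyrin, had 22.8, 19.7 and 22.9 CPM in isotype, 21, 22.8 and 22.1 in anti-PDL1, and 24.8, 23.9 and 21.3 in BTZ+anti-PDL1 tumours, and the groups overlapped. Its log2 fold changes were 0.012 ± 0.10, 0.086 ± 0.10 and 0.098 ± 0.10 in anti-PDL1 against isotype, on adding BTZ, and in BTZ+anti-PDL1 against isotype. The first was 0.082 without the muscle-rich tumours.

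Of the 4 remaining factors, Psme3 and Psme4 are activators that open the core without the cap. Psme3 had 189, 211 and 211 CPM in isotype, 185, 194 and 196 in anti-PDL1, and 196, 178 and 178 in BTZ+anti-PDL1 tumours. BTZ+anti-PDL1 replicates 2 and 3 were the lowest, and the log2 fold change against isotype was -0.15 ± 0.07 (adjusted p = 0.604 by edgeR). Psmf1, an inhibitor of the core in purified form, had 38, 35.5 and 32.6 CPM in isotype, 36.0, 36.4 and 34.2 in anti-PDL1, and 32.2, 30.1 and 34.8 in BTZ+anti-PDL1 tumours. On adding BTZ its log2 fold change, -0.14 ± 0.09 (adjusted p = 0.886), was the lowest of the 38 in that comparison.

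Pomp, which leads the beta subunits into the maturing core, had 63.6, 56.8 and 61.4 CPM in isotype, 45.7, 55.7 and 61.1 in anti-PDL1, and 52.1, 45.6 and 64.2 in BTZ+anti-PDL1 tumours. Anti-PDL1 replicate 1 and BTZ+anti-PDL1 replicate 2 were low, near 46, and each treated group also held a tumour above 61. Its fold changes (log2) were -0.16 ± 0.14, -0.0054 ± 0.14 and -0.17 ± 0.14 in the 3 comparisons as ordered above (adjusted p = 0.849, 0.995 and 0.745 by edgeR), and the first was -0.044 without the muscle-rich tumours. All 4 of these factors had fold changes below 0 on adding BTZ (median -0.050), whereas 13 of the 14 core genes lay above 0. That contrast between classes was not tested.

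Averaged over the 38 genes, log2 CPM relative to the mean of the 9 tumours was 0.042, 0.050 and 0.041 in isotype, -0.080, 8.34e-05 and -0.030 in anti-PDL1, and 0.036, -0.038 and -0.022 in BTZ+anti-PDL1 tumours. On this TMM-scaled measure the isotype tumours lay close together and above the others, and anti-PDL1 replicate 1 was the lowest. The TMM factor was 0.964 in isotype replicate 2, which raised its CPM, and between 0.993 and 1.02 in the other tumours. Gaps between tumours this small depend on that scaling, and the means without it were not computed. The pooled SD between tumours of a group was 0.0324. Anti-PDL1 replicate 1 was the lowest tumour for 13 of the 38 genes, and isotype replicates 2 and 3 were the highest for 12 and 11. In the alpha ring the mean was 0.13 in BTZ+anti-PDL1 replicate 1, against -0.038 and 0.0011 in replicates 2 and 3. Both anti-PDL1 replicate 1 (low) and BTZ+anti-PDL1 replicate 1 (high) were muscle-rich, and the part of muscle content in these values was not tested.

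**Figure D5:**
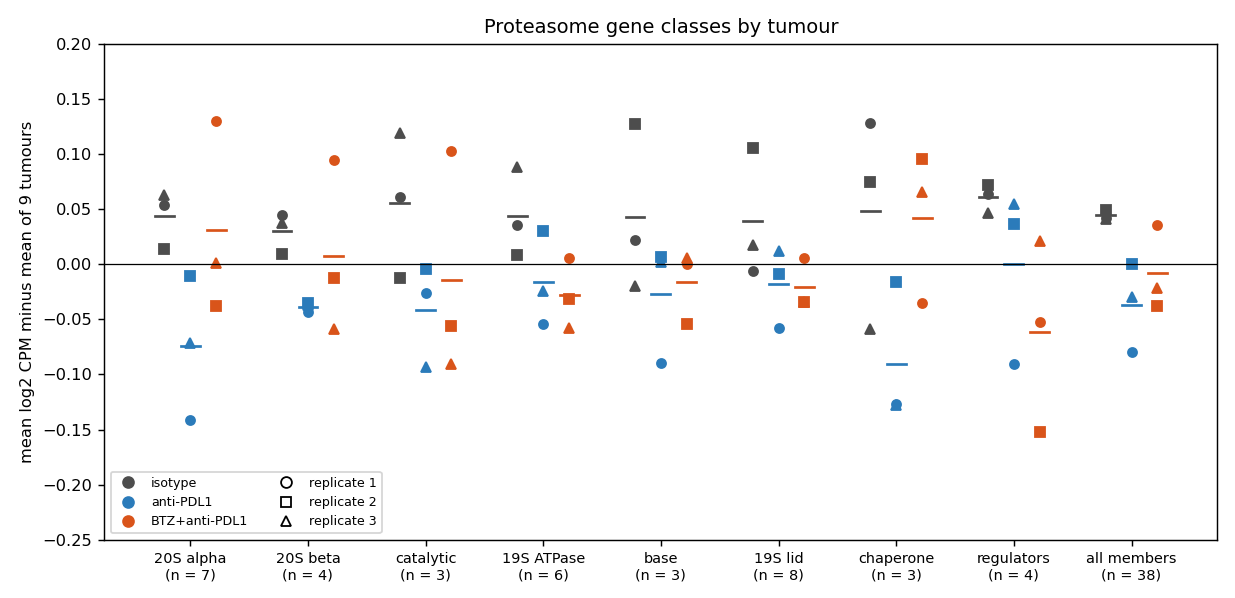
Mean over the genes of each role class, and over all 38, of log2 CPM minus the mean of 9 tumours, per tumour; short bars are group means, and n below each class is its number of genes. Over all 38 genes the isotype tumours lie at 0.041 to 0.050, the anti-PDL1 tumours at -0.080 to 8.34e-05 and the BTZ+anti-PDL1 tumours at -0.038 to 0.036.

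Other genes of the pathway, from lists chosen with earlier results known, also gave 0 called genes in each comparison by edgeR. Of the immunoproteasome genes (3 inducible catalytic subunits, Psmb8, Psmb9 and Psmb10, and the subunits of its activator, Psme1 and Psme2), 5 of 5 had fold changes above 0 in each comparison, with medians of 0.22, 0.15 and 0.54. Over all genes, 49%, 50.8% and 49.7% lay above 0 in the same order. The comparisons share tumours, so these directions are not independent of each other. Psmb10, which takes the place of Psmb7, had 39.6, 30.1 and 56.5 CPM in isotype, 51.5, 51.3 and 43.9 in anti-PDL1, and 67.8, 51.7 and 64.0 in BTZ+anti-PDL1 tumours. All BTZ+anti-PDL1 tumours were above all anti-PDL1 tumours, beside 7.33% of all genes, and isotype replicate 3 lay among the treated ones. In FPKM that gap was narrow (41.2 against 40.6). The log2 fold change against isotype was 0.54 ± 0.21 (unadjusted p = 0.0302, adjusted p = 0.549 by edgeR), and it ran from 0.36 without isotype replicate 2 to 0.81 without isotype replicate 3. For Psmb8 it was 0.54 ± 0.34 and for Psmb9 0.71 ± 0.39. Without isotype replicate 2 these were 0.22 and 0.38, without isotype replicate 3 they were 1.00 and 1.19, and without all 3 muscle-rich tumours 0.96 and 1.11. In anti-PDL1 against isotype, Psmb8 and Psmb9 gave 0.41 and 0.38, and 0.88 and 0.83 without the muscle-rich tumours. The activator subunits Psme1 and Psme2 gave 0.24 ± 0.12 and 0.23 ± 0.18 in BTZ+anti-PDL1 against isotype, the latter between 0.042 without isotype replicate 2 and 0.41 without isotype replicate 3.

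The FPKM ratio of each inducible to its constitutive subunit shows the same genes against a steady partner. Psmb10 over Psmb7 was 0.870, 0.719 and 1.32 in isotype, 1.27, 1.16 and 1.11 in anti-PDL1, and 1.52, 1.26 and 1.61 in BTZ+anti-PDL1 tumours. Psmb8 over Psmb5 was 0.0487 to 0.128 in isotype, 0.120 to 0.135 in anti-PDL1 and 0.123 to 0.154 in BTZ+anti-PDL1 tumours. Psmb9 over Psmb6 was 0.0226 to 0.0693, 0.0615 to 0.0715 and 0.0587 to 0.104 in the same order. Isotype replicate 2 was the lowest for all 3 ratios. That tumour also had the lowest summed T cell markers (6.14 CPM, against 22.3 to 37.8 in the other 8) and the lowest summed macrophage markers (803 CPM, against 1160 to 1600), and their part in the ratios was not tested. As absolute ratios across genes these depend on the gene model lengths, whereas the fold of a given ratio from tumour to tumour does not.

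Nfe2l1, the factor of the bounce-back response, had 55.4, 248 and 58.1 CPM in isotype, 63.4, 54.9 and 60.2 in anti-PDL1, and 62.1, 235 and 53.5 in BTZ+anti-PDL1 tumours. It lay between 53.5 and 63.4 in 7 tumours and was more than 3 times as high in isotype replicate 2 and BTZ+anti-PDL1 replicate 2. Fold changes of Nfe2l1 (log2) were -1.02 ± 0.80 for anti-PDL1 against isotype and 0.97 ± 0.80 on adding BTZ (adjusted p = 0.841 and 0.896 by edgeR). Without isotype replicate 2 the first was 0.074, and without BTZ+anti-PDL1 replicate 2 the second was -0.042. The mean of the 38 genes in those 2 tumours was 0.050 and -0.038 on the TMM-scaled measure, and values this small depend on that scaling. Whether they relate to the Nfe2l1 transcript was not tested. Nfe2l1 is regulated mainly through its protein, which was not measured.

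Of 13 genes of proteasome recovery and ubiquitin supply, 10 were below 0 in anti-PDL1 against isotype, 6 on adding BTZ and 9 in BTZ+anti-PDL1 against isotype. The shares of all genes below 0 were 51%, 49.2% and 50.3%. Rps27a, which encodes ubiquitin fused to a ribosomal protein, had 45.3, 56.8 and 46.4 CPM in isotype, 46.7, 52.8 and 52.4 in anti-PDL1, and 65.8, 60.6 and 57.6 in BTZ+anti-PDL1 tumours, the last group above all others. On adding BTZ the value was 0.28 ± 0.10 (adjusted p = 0.839 by edgeR), and 0.17 without the muscle-rich tumours. Of all genes, 7.33% were higher without overlap on adding BTZ, and 6.96% in BTZ+anti-PDL1 against isotype. The small Maf partners of Nfe2l1 gave -0.48 ± 0.17 (Maff) and -0.31 ± 0.11 (Mafk) in anti-PDL1 against isotype.

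Of 17 measured partner genes, 12, 8 and 12 were below 0 in the 3 comparisons, beside 51%, 49.2% and 50.3% of all genes. Shfm1, the smallest lid subunit, had 91.8, 91.2 and 110 CPM in isotype, 80.1, 80.1 and 75.3 in anti-PDL1, and 81.3, 80.4 and 73.0 in BTZ+anti-PDL1 tumours. Isotype tumours were all above the others. In log2 terms the fold change was -0.31 ± 0.09 and -0.32 ± 0.09 for the 2 treated groups against isotype (adjusted p = 0.763 and 0.453 by edgeR). In these comparisons 6.61% and 6.03% of all genes were lower without overlap. Zfand5, a proteasome-binding activator, had 117, 128 and 110 CPM in isotype, 101, 101 and 103 in anti-PDL1, and 114, 109 and 122 in BTZ+anti-PDL1 tumours, so all anti-PDL1 tumours lay below the rest. Its log2 fold change was -0.22 ± 0.07 for anti-PDL1 against isotype (6.61% of all genes were lower without overlap) and 0.18 ± 0.07 on adding BTZ (7.33% higher). For Rps27a, Shfm1 and Zfand5 the overlap in FPKM is not given here. Txnl1, a cap-bound thioredoxin, gave -0.18 ± 0.07 in anti-PDL1 against isotype and 0.12 ± 0.07 on adding BTZ, the latter 0.051 without the muscle-rich tumours.

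The 10 cytosolic heat shock genes, which mark protein misfolding, were all below 0 in anti-PDL1 and in BTZ+anti-PDL1 against isotype (medians -0.19 and -0.14), and 6 of 10 on adding BTZ (median -0.035). The shares of all genes below 0 were 51%, 50.3% and 49.2% in that order. Hspa1b had 48.1, 108 and 19.2 CPM in isotype, 29.4, 26.4 and 25.4 in anti-PDL1, and 27.3, 14.4 and 25.5 in BTZ+anti-PDL1 tumours. Isotype replicate 2 was far above the rest, and isotype replicate 3 was below all anti-PDL1 tumours. BTZ+anti-PDL1 against isotype gave -1.38 ± 0.58 (adjusted p = 0.573 by edgeR), and -0.58 without isotype replicate 2. Its neighbour Hspa1a gave -0.71 ± 0.31, and the chaperone Hsp90aa1 gave 0.15 ± 0.10 on adding BTZ. Reads of Hspa1a and Hspa1b, near-identical copies, may have been split between them. Hsf1, the factor that drives these genes, gave -0.21 ± 0.09 in anti-PDL1 against isotype and 0.11 ± 0.09 on adding BTZ, the latter 0.022 without the muscle-rich tumours.

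The 38 genes lie on 14 autosomes and the X chromosome, and what they share in position is limited. Of them, 30 have the same locus in GENCODE M21 as in the deposited table. A coding gene starts in the opposite direction within 1000 bases of 6 of them, namely Psma2 (Mrpl32, 75 bases between starts), Psma7 (Ss18l1, 76), Psmb1 (Tbp, 137), Psmc2 (Dnajc2, 32), Psmc5 (Ftsj3, 75) and Psmd10 (Atg4a, 179). Exons of 9 genes overlap another gene, so the counts of Psma4, Psma5, Psmb5, Psmb7, Psmc3, Psmd1, Psmd3, Psmd9 and Psmd13 are uncertain to that extent. No strand setting was given for overlaps on opposite strands. Mir686 in Psmb5 and Gm21972 in Psmd1 lie on the same strand, where a strand setting would not part the reads.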

How the data were processed

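RNA-seq of 9 tumours (3 per group) was used. Per the file headers, the deposited table gives for each gene a raw count and an FPKM value per tumour; dividing each count by its library total and a fixed length per gene returns the authors' FPKM. Per the submitters' processing notes, HISAT2 2.0.4, StringTie 1.3.3b and build mm10 were used, with roles unstated. Which tool counted reads, with what annotation and strand setting, was not given in the sources used here. Groups follow the treatment label; titles of the isotype libraries say blank, and columns of the combination group were matched by treatment name and replicate number. Tumours came from separate randomised mice.

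The test on counts was that of edgeR 4.0.16 under R 4.3.3 (quasi-likelihood F test, robust dispersion, TMM scaling, 3 group means over 9 tumours, 6 residual degrees of freedom). Filtering with filterByExpr (minimum count 10) kept 14506 of 34745 genes, and p-values were adjusted over all of them by Benjamini-Hochberg. Log2 CPM used a prior count of 2. CPM is TMM-scaled, SE is the absolute log2 fold change over the square root of F, and 95% intervals use the same F test. Groups were said not to overlap where, by CPM, all tumours of one lay above all of the other. Some of these groups did overlap in FPKM, which carries no TMM factor. The script was tested on simulated data.

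The members and the lists of related genes were chosen with earlier results of these data known. Genes described in full were the catalytic subunits, in each comparison the 2 members with the highest and the 2 with the lowest fold change and the 2 with the smallest p, the highest and lowest by FPKM in each role, the immunoproteasome genes, Nfe2l1, and in each related list up to 2 genes with the smallest p; Psma1, Psma4, Psma6, Psmc3, Psmc5, Psmc6, Psmd8 and Psmd14 were added after their values were seen. Of 49 related genes listed, 47 were found by symbol, and the values of 2 that the rule names are not reported here. Alternatives were RLE scaling, no filter, a fit of the 2 groups compared alone, a replicate block, DESeq2 1.42.0, limma 3.58.1 (limma-trend) on log2 FPKM with a pseudocount of 1 or 0.1 where 3 or more tumours reached FPKM 1, and leaving out each tumour. Promoter sequences came from RefSeq (GRCm38.p6) and exons from GENCODE M21.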

Additional observations from a re-analysis of the deposited data

How the results depend on the processing

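No member was called by edgeR under any alternative run, nor by DESeq2 or limma. The number of all genes called depended on the tool. In anti-PDL1 against isotype it was 2, then 1 with the replicate block, 15 with DESeq2 and 0 without the 3 muscle-rich tumours (an alternative chosen after seeing the data). In BTZ+anti-PDL1 against anti-PDL1 it was 2, then 4 without the count filter, 12 with the 6 tumours compared, 1 with the replicate block, 60 with DESeq2 and 0 without the muscle-rich tumours. In BTZ+anti-PDL1 against isotype it was 1, then 6 without the filter, 0 with 6 tumours, 0 with the block, 111 with DESeq2, 3 with either FPKM pseudocount and 0 without the muscle-rich tumours. The cause was not tested. Leaving out single tumours gave 1 to 4, 1 to 7 and 0 to 20 called genes.

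Without the muscle-rich tumours the members' median was -0.045, -0.040 and -0.090 in the 3 comparisons in the same order. By limma with an FPKM pseudocount of 1 it was -0.057, 0.023 and -0.029. The cause was not tested. Leaving out single tumours it ran from -0.087 to -0.055, -0.014 to 0.034, and -0.076 to -0.036. Without the muscle-rich tumours the sign turned for Psmf1 in anti-PDL1 against isotype (-0.057) and for Psmb5 (-0.016), Psmb6 (-0.0083) and Psmb7 (-0.054) on adding BTZ. Nfe2l1 in BTZ+anti-PDL1 against isotype turned to 0.011 and 0.014 with FPKM pseudocounts of 1 and 0.1. Leaving out single tumours turned signs in anti-PDL1 against isotype for Psmf1 (-0.048 to 0.068), Psmd10 (-0.051 to 0.052), Psme2 (-0.11 to 0.27) and Nfe2l1 (-1.36 to 0.074), on adding BTZ for Psmb5 (-0.055 to 0.060), Psmb6 (-0.0049 to 0.096), Psmb7 (-0.039 to 0.060) and Nfe2l1 (-0.042 to 1.32), and against isotype for Nfe2l1 (-1.06 to 1.05).

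Replicate numbers did not pair the tumours. Deviations of same-numbered tumours correlated between -0.434 and 0.393, others between -0.416 and 0.581, and 1 of 9 tumours correlated best with its own number. With the replicate block the members' medians were -0.068, 0.010 and -0.054, and 0 members were called. With 3 tumours per group, the median half-width of a member's 95% interval was 0.16 on the log2 scale.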
